A study of Homo sapiens with 4 samples.

Results

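The genes described here are 10 parts of the Notch pathway that the array named directly, namely the receptors NOTCH1, NOTCH2 and NOTCH3, the ligands JAG1, JAG2 and DLL1, and the nuclear targets HES1, HEY1, HEYL and NRARP. They were chosen by name, with earlier results of these data known. They carried 16 of the 47229 probes and are 10 of 30562 genes with a name. JAG1, the ligand Jagged1, stood out in H4 cells, where its log2 ratio of GANT61 over DMSO was 1.39, and the receptor NOTCH1 followed at 0.66. On the authors' normalized intensities these ratios were 0.82 and 0.53. In ES2 cells no member differed by 1.5-fold. Few genes of any kind did so there, 0.647% of those tested, against 23.8% in H4.

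The groups were H4 cells given 20 µM GANT61, H4 cells given DMSO, ES2 cells given 20 µM GANT61 and ES2 cells given DMSO, all at 48 h and with 1 Illumina BeadChip each. GANT61 is a small molecule that keeps the Hedgehog transcription factors GLI1 and GLI2 from binding DNA, DMSO is its solvent, and the series title asks whether Hedgehog inhibition impairs cancer cell growth by promoting autophagy. ES2 is an established line usually described as ovarian clear cell carcinoma and H4 one usually described as neuroglioma, while the labels call both an ovarian adenocarcinoma from ascites. The labels number every array replicate 1, so no group has a second sample and no value within a line has an error or a p-value.

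Notch signalling passes between touching cells. A Jagged or Delta-like ligand on one cell binds a Notch receptor on its neighbour, a metalloprotease and then gamma-secretase cut the receptor, and the freed intracellular part enters the nucleus, where it joins the DNA-binding protein RBPJ and a Mastermind protein to switch on genes. The best known of these are HES and HEY genes, which encode repressors that hold back differentiation, and NRARP, which encodes a small feedback inhibitor. In the nervous system the pathway is known for keeping neural and glial progenitors immature, and in ovarian carcinoma NOTCH3 and JAG1 have been studied as drivers of growth.

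Probes were called detected at a detection p under 0.01. The table that holds these p-values names the line but not the treatment of a column, so detection is given as the number of a line's 2 arrays. Between 27.3% and 30.6% of probes were detected on the H4 arrays and between 32.6% and 33.4% on the ES2 arrays. Markers of the labelled tissue were sparse, since EPCAM, CDH1, PAX8, WT1 and MUC16 were detected on no array. Of 10 epithelial and Müllerian markers H4 detected 1 on both arrays (KRT18) and ES2 3 (KRT7, KRT8 and KRT18). KRT8 was also detected on 1 H4 array. Of 8 glial and neural markers H4 detected 4 on both arrays (OLIG2, NCAM1, SLC1A3 and TUBB3) and ES2 2 (SLC1A3 and TUBB3). SOX2 was detected on 1 H4 array, and GFAP, S100B and NES were detected on none. Of 5 mesenchymal markers, VIM, CDH2 and TWIST1 were detected on all arrays, and FN1 and ZEB1 each on 1 ES2 array and no H4 array. Of the blood markers, CD68 was detected on all arrays and PTPRC and CD3E on none. The endothelial markers PECAM1, VWF and KDR were detected on none, whereas the endothelial cadherin CDH5 was detected on both ES2 arrays.

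Most probes of the members were dim, as were most probes on the array. By gene, 6 of the 10 members were detected on at least 1 H4 array, against 11546 of 30562 genes. On at least 1 ES2 array 5 were, against 12213 of 30562. Of the 16 probes, 4 were detected on both arrays of each line, namely those of NOTCH1, JAG1 and HES1 and 1 of the 3 of NOTCH2. A probe of HEY1 was detected on both ES2 arrays and on no H4 array. NOTCH3 and DLL1 were each detected on 1 H4 array and on no ES2 array. JAG2, HEYL and NRARP, with 6 probes in all, were detected nowhere, so their intensities give no level and their ratios no direction. At this signal, a change in those genes was not detectable, which is not the same as its absence.

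**Figure D1:**
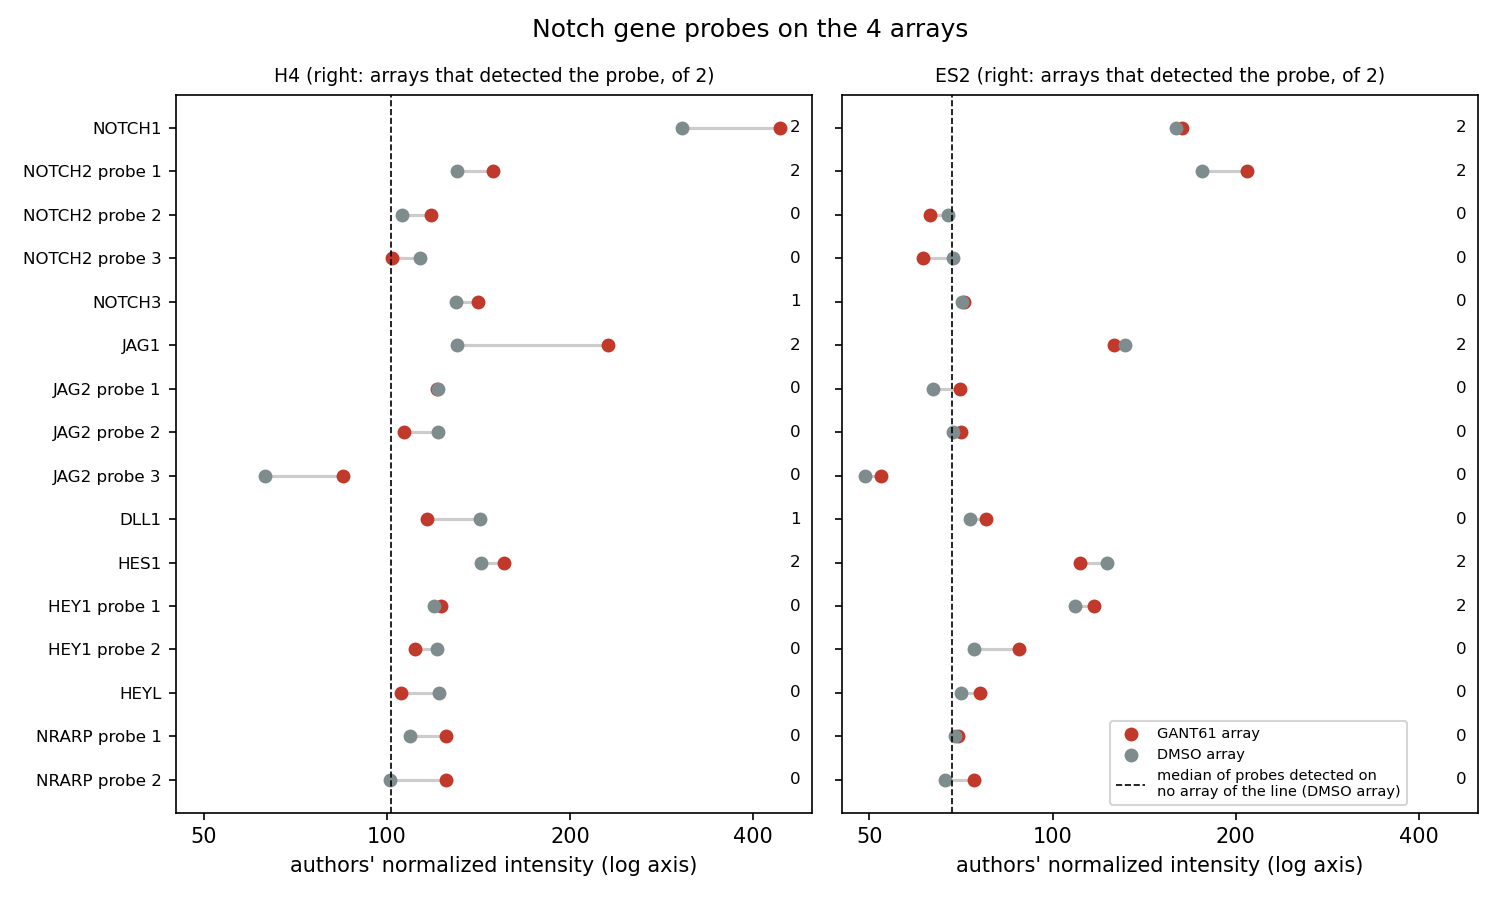
The authors' normalized intensity of each of the 16 probes (log axis) on the GANT61 and DMSO arrays of H4 (left) and ES2 (right), with the number of arrays that detected it at the right of each row and the median of undetected probes as a dashed line. NOTCH1 and JAG1 show the wide gaps among detected probes in H4, and most other points lie near the dashed line.

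Intensities below are the authors' normalized values on a linear scale. Log2 ratios are GANT61 over DMSO after background correction and quantile normalization, and for the members the same ratio on the authors' scale is given where it differs much. For other pathway genes the ratios and folds are on the background-corrected scale only. Such a fold can exceed what the printed intensities give, as for DNER and DLK2 in H4. As a yardstick for noise, 2 probes of one gene, both detected, gave ratios that scattered with a within-gene SD of 0.22 in H4 (1993 genes) and 0.14 in ES2 (2545 genes) on the log2 scale. That SD covers probe differences and not differences between cultures. In bulk RNA, fewer cells that express a gene and less RNA of it per cell cannot be told apart.

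Among the receptors, NOTCH1 was detected on all 4 arrays. It acts in many tissues and is a known oncogene in T cell leukaemia. Its intensity was 443 on the H4 GANT61 array, against 306 on the H4 DMSO array. In ES2 it was 163 on the GANT61 array, against 160 on the DMSO array. The H4 pair was thus separated by a log2 ratio of 0.66 (1.58-fold, or 1.44-fold on the authors' scale), more than the probe SD there, while the ES2 ratio of 0.03 lay inside the probe SD. Of all genes tested in H4, 90.6% had a lower ratio than NOTCH1, and 19.35% had a larger change in either direction.

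NOTCH2, a receptor known for its role in bile duct and B cell development, was measured by 1 detected probe of 3. That probe read 150 on the H4 GANT61 array, against 130 on the H4 DMSO array, and 209 on the ES2 GANT61 array, against 176 on the ES2 DMSO array. It was the detected member with the highest ratio in ES2, at 0.27 (1.20-fold), and in H4 its ratio was 0.43 (1.34-fold, or 1.15-fold on the authors' scale). Both ratios were positive and under 2 probe SDs. The other NOTCH2 probes were detected on no array and gave ratios of 0.29 and -0.28 in H4 and -0.24 and -0.40 in ES2. They read between 61.2 and 118, close to the undetected probes of each line, whose median was 102 in H4 and 68.3 in ES2. NOTCH2 also has near-identical human copies of its first exons, the NOTCH2NL genes, and which probes they could reach is not given in the sources used here.

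NOTCH3, the receptor of vascular smooth muscle whose gene is often amplified in ovarian carcinoma, read 141 on the H4 GANT61 array, against 130 on the H4 DMSO array, with detection p-values of 0.0039 and 0.0104 on the arrays of that line. Those intensities differ by 1.09-fold. On the background-corrected scale, with the dimmer array held at the detection floor, the bound was 1.21-fold higher with GANT61 (0.27 on the log2 scale), which lies near 1 probe SD. On the ES2 arrays it read 71.6 with GANT61 and 70.8 with DMSO, neither above background.

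Of the ligands, JAG1 differed most. Jagged1 is the ligand whose loss causes Alagille syndrome and which activates Notch in neighbouring tumour and endothelial cells. Its intensity was 231 on the H4 GANT61 array, against 131 on the H4 DMSO array. In ES2 it was 126 on the GANT61 array, against 132 on the DMSO array. The H4 pair stood well apart with GANT61 the higher, and the ES2 pair lay close together. The H4 log2 ratio was 1.39 (2.62-fold), 98.1% of tested H4 genes had a lower one, and the ES2 ratio was -0.07 (1.05-fold lower), inside the probe SD. The H4 fold depends on the background, since the highest detection p-value of this probe in H4 was 0.0078 and the DMSO intensity was little above the undetected median. It was 2.06-fold without background correction, 2.11-fold with a larger offset, 2.22-fold with median scaling and 1.77-fold on the authors' scale. JAG1 has a single probe on this array, so no second probe bears on it.

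DLL1, a Delta-like ligand that keeps neural progenitors dividing, lay on the other side in H4. It read 117 on the H4 GANT61 array, against 143 on the H4 DMSO array, and was detected on 1 of them, with p-values of 0 and 0.132. The measured log2 ratio was -0.62, or -0.29 on the authors' scale. With the dimmer array held at the detection floor, however, DLL1 was at least 1.08-fold lower, which is inside the probe SD. In ES2 it read 77.7 with GANT61 and 73.1 with DMSO and was not detected. JAG2, the second Jagged ligand, had 3 undetected probes, which read 84.8 to 121 with GANT61 and 63.1 to 121 with DMSO in H4, and 52.3 to 70.8 with GANT61 and 49.1 to 68.6 with DMSO in ES2.

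**Figure D2:**
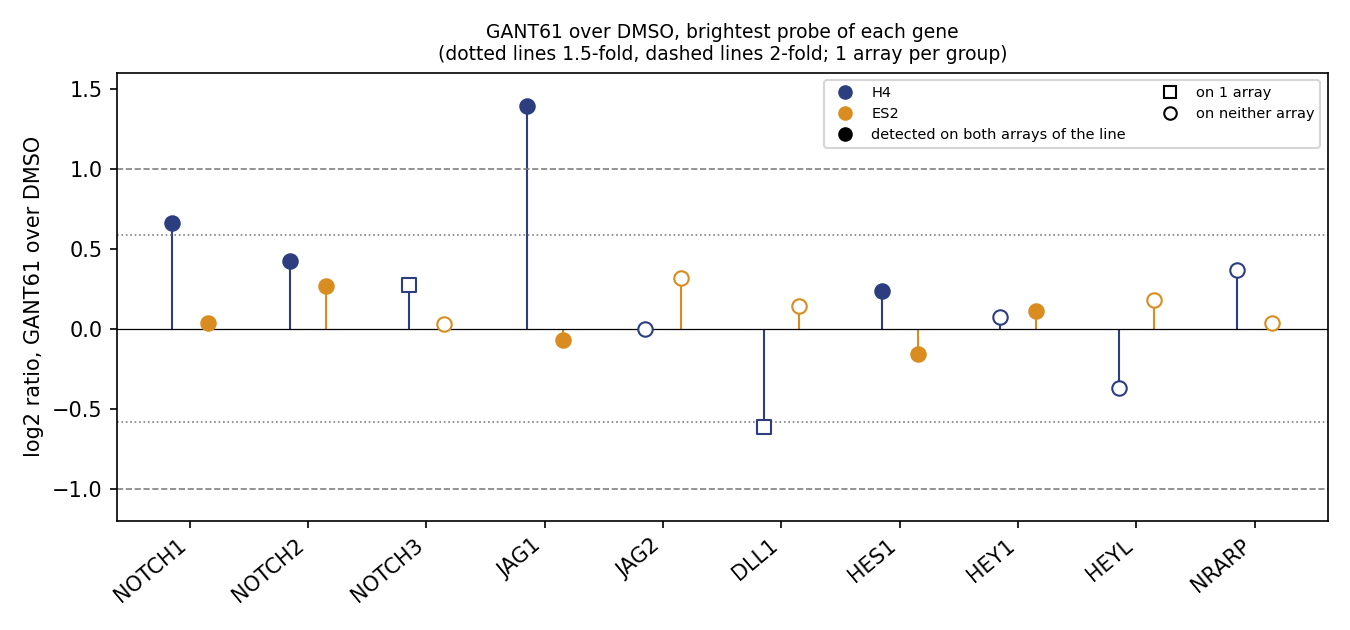
The log2 ratio of GANT61 over DMSO for the brightest probe of each of the 10 genes, in H4 (left point of a pair) and ES2 (right point), with filled points for genes detected on both arrays, squares for genes detected on 1 and open circles for genes detected on neither. JAG1 in H4 is the one point beyond 2-fold, at 1.39, and all ES2 points lie within 1.5-fold.

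The detected targets differed little between treatments in either line. HES1, the canonical Notch target and a repressor of proneural genes, was detected on all 4 arrays. It read 156 on the H4 GANT61 array, against 143 on the H4 DMSO array, and 111 on the ES2 GANT61 array, against 123 on the ES2 DMSO array. The ratios were 0.23 in H4 (1.18-fold higher) and -0.16 in ES2 (1.12-fold lower), each about 1 probe SD. HES1 thus lay higher with GANT61 in H4 and lower in ES2, by amounts that 62.3% of tested H4 genes and 41.1% of tested ES2 genes exceeded in size. HEY1, a Hairy-related repressor known in vessel and heart development, read 117 on the ES2 GANT61 array, against 109 on the ES2 DMSO array, a ratio of 0.11 (1.08-fold). On the H4 arrays the same probe read 123 with GANT61 and 119 with DMSO and was not detected. The second HEY1 probe was not detected in either line. In ES2 it read 88.0 with GANT61 and 74.2 with DMSO, with a lowest detection p of 0.0117, so it fell just short there.

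HEYL, a HEY-type repressor that marks Notch-active mural cells, read 106 with GANT61 and 122 with DMSO in H4, and 75.9 with GANT61 and 70.8 with DMSO in ES2. NRARP, whose protein limits Notch signalling, had 2 probes. In H4 they read 125 each with GANT61 and 109 and 101 with DMSO, with lowest detection p-values of 0.0455 and 0.0481. In ES2 they read 69.8 and 74.2 with GANT61 and 69.0 and 66.6 with DMSO. None of these values was above background at the threshold, and both NRARP probes would pass at a p under 0.05 on 1 H4 array.

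The sequences before the gene starts are shown for HES1 and HEYL, where the binding core of RBPJ was found, and for JAG1, the member with the highest H4 ratio, where it was not. They are the 250 bases before the RefSeq start of each gene in GRCh38.p14, read 5′ to 3′ on the gene's strand. HES1 is on the plus strand at chr3:194135898-194136147, HEYL on the minus strand at chr1:39639644-39639893 and JAG1 on the minus strand at chr20:10674000-10674249. Capitals mark matches to the RBPJ core TGGGAA or its reverse complement.
HES1: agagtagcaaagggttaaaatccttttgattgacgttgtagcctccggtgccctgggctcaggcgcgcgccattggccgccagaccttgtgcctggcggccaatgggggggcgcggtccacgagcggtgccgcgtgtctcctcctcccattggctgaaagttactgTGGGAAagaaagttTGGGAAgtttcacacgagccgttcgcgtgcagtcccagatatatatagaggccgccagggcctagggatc
HEYL: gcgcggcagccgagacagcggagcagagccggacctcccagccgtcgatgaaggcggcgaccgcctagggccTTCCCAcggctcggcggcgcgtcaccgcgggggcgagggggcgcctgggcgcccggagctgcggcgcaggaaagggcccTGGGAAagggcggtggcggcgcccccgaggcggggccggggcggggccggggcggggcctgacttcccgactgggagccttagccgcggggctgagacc
JAG1: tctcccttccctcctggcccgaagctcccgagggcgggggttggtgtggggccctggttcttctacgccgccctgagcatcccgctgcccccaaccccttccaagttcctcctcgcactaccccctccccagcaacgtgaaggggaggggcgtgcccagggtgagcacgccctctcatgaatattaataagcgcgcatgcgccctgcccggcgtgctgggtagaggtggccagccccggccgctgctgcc

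Of the 10 genes, 8 had an entry in the RefSeq promoter table, and HEY1 and DLL1 had none. The RBPJ core, searched on both strands, was found in 2 of them, with 2 matches each. In HES1 the matches began at positions -84 and -70 from the start, both on the strand of the gene, and in HEYL at -178 on the opposite strand and at -99 on the strand of the gene. Among 35116 promoters of the same length, 20.8% held at least 1 match and 2.90% at least 2. The N box CACNAG, to which HES proteins bind, was found 3 times in HES1 and once in NOTCH3, against 32.0% of all promoters with at least 1. No match of the N box overlapped one of the RBPJ core. The E box CACGTG and the GLI consensus GACCACCCA were found in none of the 8, against 6.34% and 0.199% of all promoters. No match says only that these letters are not in these windows. Both promoters with RBPJ cores belong to target genes, of which HES1 was detected on every array and HEYL on none. The target NRARP had no core in its window, and the target HEY1 could not be searched.

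**Figure D3:**
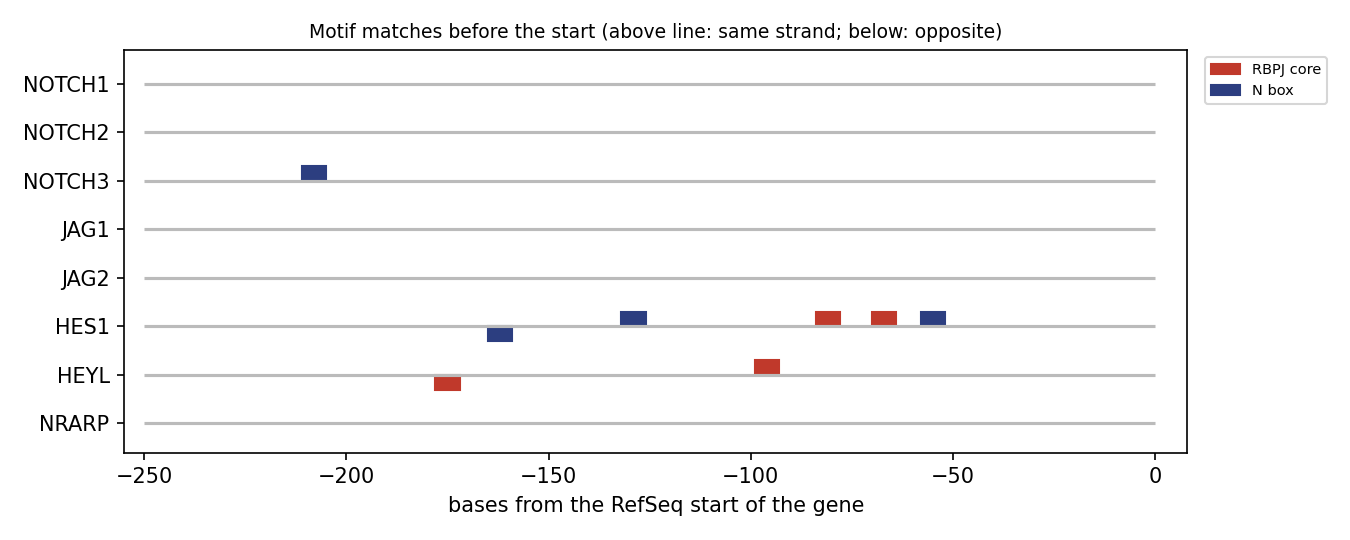
Matches to the RBPJ core and the N box in the 250 bases before the start of 8 Notch genes, with the distance from the start in bases and matches on the gene's strand above the line. HES1 holds 2 RBPJ cores and 3 N boxes, HEYL 2 RBPJ cores, NOTCH3 1 N box, and the other 5 genes none.

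Counted as a group in H4, 6 members were detected on at least 1 array, 5 of them higher with GANT61 and 1 lower, against 45.4% of 11546 tested genes that were higher. Of the 6, 3 differed by at least 1.5-fold (JAG1, NOTCH1 and DLL1), against 23.8% of all genes tested, and 1 by at least 2-fold (JAG1), against 7.58%. With so few members, chosen with earlier results of these data known, those shares are a description and say little about the group. The median log2 ratio of the 6 was 0.35, beside -0.05 over all tested genes. With NOTCH3 and DLL1 held at their bounds the count at 1.5-fold was 2 and the median 0.35, and on the authors' scale the count was 1, JAG1.

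In ES2, 5 members were detected, each on both arrays, with 3 higher and 2 lower, against 50.6% of tested genes that were higher. None differed by 1.5-fold, against 0.647% of 12213 tested genes. Their median was 0.03 and that of all genes 0.00, and the widest ratio among them was that of NOTCH2.

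The lines were also fitted together with limma, with cell line as a block and the 2 lines as the replicates of treatment, which leaves 1 residual degree of freedom. The fit called 16 of 10229 genes, or 0.156%, at a Benjamini-Hochberg adjusted p under 0.05. Of the 4 members in the fit, 0 were called by limma and 1 had an unadjusted p under 0.05, as did 6.1% of all genes in the fit. That was JAG1, with a mean log2 ratio of 0.66, an unadjusted p of 0.0295 and an adjusted p of 0.701, and its direction was positive in 1 of 2 lines. NOTCH2 had a mean of 0.35 (limma adjusted p of 1) and was higher in 2 of 2 lines, as was NOTCH1 with a mean of 0.35 (limma adjusted p of 1). HES1 had a mean of 0.04 (limma adjusted p of 1). Whether a member's response differs between the lines was not tested, since each line has 1 array per treatment.

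The DMSO arrays, taken at 48 h, show how the lines differ without GANT61, with the reservation that the authors' values were scaled within each line. NOTCH1 was 2.20-fold higher in H4 than in ES2, at the 87.3 percentile of all probes on the H4 DMSO array and the 79.3 percentile on the ES2 DMSO array. NOTCH2 ran the other way, with a log2 difference of H4 over ES2 of -0.95, at the 69.7 percentile in H4 and the 80.5 percentile in ES2. Probes of one gene scattered with a within-gene SD of 0.40 for this difference, which both differences exceed. The NOTCH1 difference was 0.52 with median scaling, and that of NOTCH2 was -0.44 on the authors' scale. JAG1 had a difference of -0.48, at the 69.8 percentile in H4 and the 76.5 percentile in ES2, and -0.01 on the authors' scale. HES1 had -0.09, at the 74.3 percentile in H4 and the 75.3 percentile in ES2, and 0.21 on the authors' scale, so its direction depends on the scaling. Of the 10229 genes detected in both lines, 16.5% differed by at least 2-fold between the DMSO arrays. With GANT61, the JAG1 difference of H4 over ES2 was 0.98 and that of NOTCH1 was 1.76.

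The genes whose levels over the 4 arrays ran most like those of JAG1, by Euclidean distance between log2 signals centred on each gene's own mean, were LOC645904, the ERK pathway kinase MAP2K1 and the ADP-ribosyltransferase TIPARP. Their distances were 0.0252, 0.0745 and 0.132 among 10228 genes compared. Their H4 ratios were 1.37, 1.49 and 1.35 and their ES2 ratios -0.09, -0.05 and 0.11. With 4 arrays such likeness is a description.

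The rest of the pathway was read through 86 other genes on the array, sorted by their step. Their lists too were chosen with earlier results of these data known, so the counts are a description. In H4, 59 were detected, 31 of them higher and 28 lower with GANT61, with 11 past 1.5-fold upward and 7 past it downward. Over all tested H4 genes, 11.3% passed 1.5-fold upward and 12.5% downward. The median was 0.07, beside -0.05 over all genes. In ES2, 62 were detected, 31 higher and 31 lower, none by 1.5-fold, with a median of 0.00.

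Ligand-like proteins outside the members gave opposite values in H4. DNER, a neuronal transmembrane protein described as a Notch ligand, read 371 on the H4 GANT61 array, against 163 on the H4 DMSO array (3.15-fold higher). DLK2, a Delta-like protein that lacks the receptor-binding domain of classical ligands, read 257 on the H4 GANT61 array, against 574 on the H4 DMSO array (2.65-fold lower). Another DLK2 probe, detected on 1 H4 array, had a log2 ratio of only -0.28. DLL3, the last of the 3 such genes detected in H4, was 1.38-fold higher there and 1.19-fold lower in ES2. In ES2, DNER read 308 with GANT61 and 235 with DMSO (1.33-fold higher), among the highest ratios of the pathway there, and DLK2 was not detected. NOTCH4, DLL4 and DLK1 were detected on no array.

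Of the genes that mature or cut the receptor, 14 were detected in H4, with 2 past 1.5-fold upward (ADAM17 and the gamma-secretase subunit PSEN2, 1.89-fold higher), 1 downward (the xylosyltransferase XXYLT1, 1.62-fold lower) and a median of -0.09. The sheddase ADAM17 was 1.61-fold higher in H4, where its other detected probe had a log2 ratio of 0.35, while in ES2 its detected probes had ratios of 0.13 and -0.10. ADAM10, the main sheddase of ligand-bound Notch, was 1.12-fold higher in H4 and 1.06-fold in ES2. NCSTN, a subunit of gamma-secretase, was 1.22-fold higher in H4 and had a ratio of -0.02 in ES2. LFNG, the fringe enzyme that shifts receptors toward Delta-like ligands, read 297 on the H4 GANT61 array, against 401 on the H4 DMSO array (1.46-fold lower). The related RFNG was 1.24-fold lower in ES2, where its detected probes ranged from -0.35 to 0.04.

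In the nuclear complex, 7 genes were detected in H4, with 3 higher and 4 lower with GANT61 and a median of -0.03. The 1 past 1.5-fold was CREBBP, 1.83-fold lower. Its other probe, detected on 1 H4 array, had a ratio of 0.37. RBPJ read 491 on the H4 GANT61 array, against 381 on the H4 DMSO array (1.35-fold higher), and 138 on both ES2 arrays. MAML1, a Mastermind co-activator, was 1.24-fold higher in H4, and it was detected on 1 ES2 array, where it was at least 1.07-fold lower. The acetyltransferase KAT2B was 1.38-fold higher in ES2, the highest ratio of the pathway there, and 1.35-fold higher in H4. Among co-repressors the ES2 median was -0.12 over 14 genes. There CTBP1 was 1.34-fold and CIR1 1.24-fold lower, while in H4 CTBP1 had a ratio of 0.00. Of the ubiquitin and trafficking genes, none passed 1.5-fold upward in H4 and 1 did so downward, the ligase partner DTX3L. It read 126 on the H4 GANT61 array, against 170 on the H4 DMSO array, and was detected on 1 of them. Its background-corrected ratio was -0.85, but its bound on that scale was 1.48-fold, short of 1.5-fold. MIB1, the ligase that lets ligand-bearing cells signal, was 1.31-fold higher in ES2 and 1.13-fold in H4, and ITCH, a ligase that marks Notch for degradation, was 1.25-fold higher in ES2. NUMB, an inhibitor of Notch, was 1.30-fold higher in H4 by its brightest probe, but its other detected probe there had a ratio of -0.03.

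Other HES and HEY genes and genes that Notch can activate in some tissues were the most spread in H4. Of 11 detected, 7 passed 1.5-fold upward and 3 downward, with a median of 0.61. Over all tested H4 genes, 11.3% passed 1.5-fold upward and 12.5% downward. This list was chosen with earlier results of these data known, so its counts are a description only. Of its HES and HEY genes, H4 detected only HES4 and HES6. The cyclin CCND1 (ratio 2.80), the progenitor factor SOX9 (1.75) and BHLHE40 (1.41), a repressor that responds to stress and hypoxia, were the highest. ID2 (-1.37), SNAI2 (-1.12) and ID3 (-1.06) were low, where the ID genes encode inhibitors of basic helix-loop-helix factors and SNAI2 a driver of mesenchymal change. As background, all of these genes answer to other pathways too. Of the HES family itself, HES4 read 600 on the H4 GANT61 array, against 415 on the H4 DMSO array (1.52-fold higher). HES6 read 216 on the H4 GANT61 array, against 164 on the H4 DMSO array (1.52-fold higher). By these intensities, on the authors' scale, both lie under 1.5-fold. Both were named here after their values were seen. In ES2 the ratio of HES4 was -0.12 and that of HES6 0.06. In ES2 none of the 12 detected genes of this list reached 1.5-fold, and the median was 0.03. Of 6 proneural factors that HES proteins repress, H4 detected NEUROG1 on 1 array and ES2 detected NEUROG2 on both arrays.

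**Figure D4:**
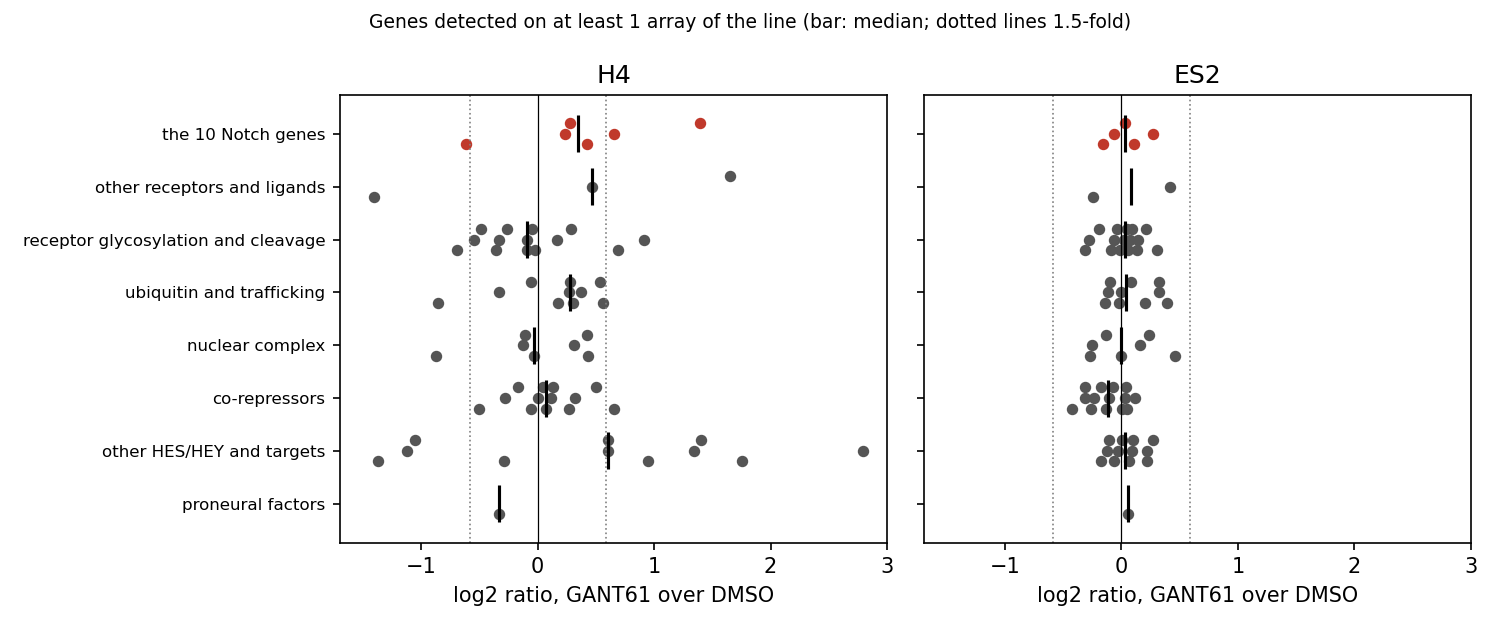
The log2 ratio of GANT61 over DMSO of every detected gene, for the 10 Notch genes (top) and 7 lists of other pathway genes, in H4 (left) and ES2 (right), with a bar at each median. In H4 the list of other targets spreads from -1.37 to 2.80, while in ES2 no point reaches the 1.5-fold lines.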

How the data were processed

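RNA was labelled with biotin by amplification and read on Illumina HT-12 V4 BeadChips, 1 per group, per the labels' protocols. The authors' deposited value table holds an intensity per probe and array. Its 2 arrays of one line have nearly the same sorted values (median difference 0.0103% for H4, 0.00457% for ES2), so the values carry a normalization made within each line. The software is not given in the sources used here. A second deposited table gave gene names and, for each probe, a detection p-value per array. Its 4 signal columns name no treatment and were not used.

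Background was corrected with normexp (saddle-point, offset 16), followed by quantile normalization over all 4 arrays and log2, with limma 3.58.1 in R 4.3.3. An offset shrinks the ratios of dim probes, and quantile normalization removes a change shared by all genes. Names were updated through RefSeq (GRCh38.p14). A gene is its brightest probe by mean log2 signal, and enters a line's comparison when detected on at least 1 of its arrays. Where 1 array detected it, the dimmer value is held at no less than that array's lowest signal among probes both arrays detected, and the ratio is a bound. The shared response was fitted with limma (lmFit, eBayes with trend) and Benjamini-Hochberg adjusted. The fit was first tried on simulated data with the same change in both lines. That trial does not cover genes whose ratios differ between the lines. Precision is limited by the number of arrays.

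The members and lists were chosen with earlier results of these data known. Named were all members and their probes, 8 core pathway genes, the 4 highest and 4 lowest pathway ratios per line (both arrays detecting), and the 3 genes most like a member past 2-fold. Other pathway genes named beside a count were chosen after their values were seen. Of the genes this rule names and the markers, 3 are not reported here. Alternatives were other background and scaling choices, other detection filters, the mean of detected probes and a fit without trend. Holding genes detected on 1 array at their bound was chosen after seeing the data.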

Additional observations from a re-analysis of the deposited data

Results flagged for a closer look

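With 1 array per line and treatment, 2 members detected on every array lay on opposite sides in the lines. The log2 ratio of JAG1 was 1.39 in H4 and -0.07 in ES2, a difference of 1.46, and that of HES1 was 0.23 in H4 and -0.16 in ES2, a difference of 0.39. Neither difference was tested. The ES2 value of JAG1 lies inside the probe SD of 0.14 there, and those of HES1 lie near the probe SD of each line.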

How the results depend on the processing

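No pairing by replicate number was possible because the groups share a single replicate number. The limma fit, with cell line as its block, already pairs the GANT61 and DMSO arrays of each line. The 11 log2 ratios of detected members, 6 in H4 and 5 in ES2, each kept 1 direction under all alternatives run. That lends no support to the directions. The arrays of a line already had nearly the same sorted values, so these alternatives could hardly change a direction within it. On the authors' scale 1 member reached 1.5-fold in H4 in place of 3, and the counts were 2 or 3 under the other alternatives. Of all tested H4 genes, 12.7% reached it on the authors' scale in place of 23.8%, and 11.6% to 22.4% under other alternatives. No member reached 1.5-fold in ES2 under any of them. Of other pathway genes in ES2, 2 did so without a detection filter in place of 0, and in H4 the count ranged from 14 to 19 against 18. Without that filter 4.17% of all ES2 genes reached 1.5-fold, in place of 0.647%. The limma fit called 0 genes in place of 16 with no background correction, an offset of 50, median scaling, the authors' scale, no detection filter, the mean of detected probes or no variance trend. Unadjusted p-values were then under 0.05 for 456 to 1582 genes, against 624. It called 12 genes at a detection p under 0.05. The adjusted p of JAG1 ranged from 0.701 to 0.999. The median difference of the DMSO arrays, H4 over ES2, over the 4 members detected in both lines was -0.29, with 0.10 on the authors' scale and -0.62 with median scaling. The cause of these shifts was not tested. Signal over background limits what can be read, since 3 of 10 members were above background on no array.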
